A study of Mus musculus with 8 samples.

Results

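The 10 genes described here code for surface proteins through which an activated B cell receives help and presents itself to T cells: Cd40, Cd80, Cd86, Cd83, Cd69, Cd44, Cd38, Fcer2a, Slamf1 and Tnfrsf13c. They were taken by symbol from a gene table of 39017 genes, and all 10 were found there, passed the filter on low values and were tested. The RNA came from induced germinal center-like B cells (iGBs), splenic B cells of C57BL6/J mice cultured on 40LB feeder fibroblasts that express CD40L and BAFF, with 1 ng/mL of IL-4, and collected at day 4. Prmt5-null iGBs (4 libraries) were Prmt5 F/F with Cγ1-cre, and control iGBs (4 libraries) carried Cγ1-cre without the floxed alleles, so both genotypes expressed the recombinase. Cγ1-cre is switched on with transcription of the IgG1 constant region, so Prmt5 is lost in B cells only once they are activated. The study used male and female mice aged 2 to 4 months. The age and sex behind each library are not given in the sources used here. Before RNA extraction the B cells were freed of the feeder layer by elutriation, a separation by flow in a centrifuge.

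Prmt5 is an enzyme that places symmetric dimethyl marks on arginines of histones and of spliceosome proteins. CD40 on the B cell is engaged by CD40L, which activates NF-κB through TRAF adaptors and in turn raises CD80, CD86, CD83, CD69, CD44 and CD23 (the product of Fcer2a), and IL-4 also raises CD23. The BAFF receptor, the product of Tnfrsf13c, gives a survival signal. CD80 and CD86 bind CD28 and CTLA-4 on T cells, and in the mouse CD38 is abundant on resting follicular B cells and low on germinal center B cells.

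Cd38 and Cd80 rose in Prmt5-null iGBs, and no member fell past the threshold. Cd38 rose 2.01-fold and Cd80 rose 1.43-fold. In each of the other 8 genes the difference did not pass an adjusted p of 0.05 by limma, which was fitted to log2(normalized count + 1) of all genes together and adjusted by Benjamini-Hochberg. Counted by adjusted p alone, 2 of 10 members passed, against 13.8% of the 16250 genes tested. With a difference of 1.5-fold or more asked as well, which is what called means here, 1 of 10 members (Cd38) passed, against 6.48% of the genes tested. Both counts are close to what the table as a whole gave. The median log2 fold change of the members was 0.0030, with 5 higher and 5 lower, against 0.0024 over all genes. In bulk RNA, fewer cells of a type and less RNA per cell cannot be told apart.

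**Figure D1:**
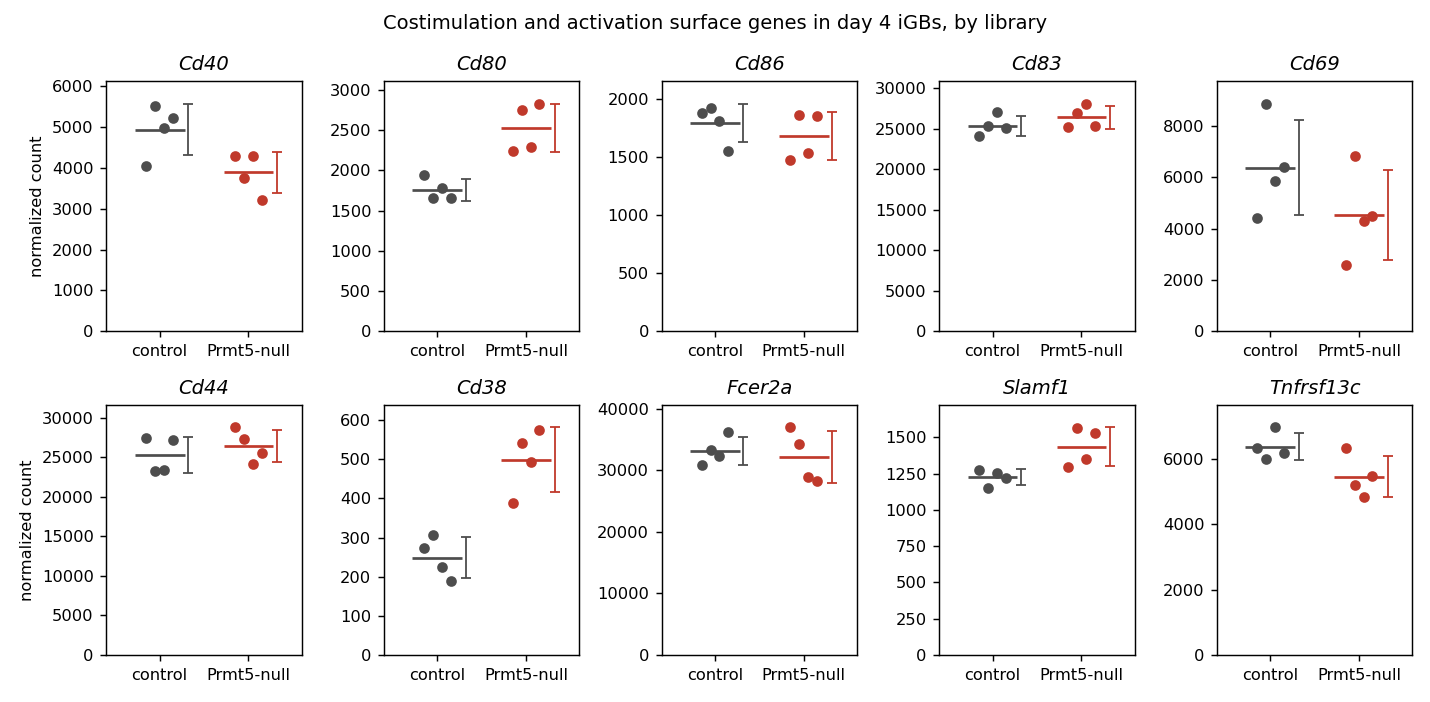
Normalized count of each gene (vertical axis, from 0) in the 4 control and 4 Prmt5-null libraries. Points are libraries, the horizontal line is the mean and the bar is the SD. The groups stand apart for Cd38 (388 to 576 against 190 to 307), Cd80 (2246 to 2824 against 1654 to 1945) and narrowly Slamf1 (1298 to 1565 against 1154 to 1273), and overlap for the rest.

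The genotype was checked with Prmt5 itself, whose normalized count was 1060 to 1994 in Prmt5-null and 11084 to 13088 in control libraries, a log2 fold change of -2.98 ± 0.17 (SE, n = 4 and 4; limma adjusted p = 6.1e-06). Read totals were 42752293 to 47174851 in Prmt5-null and 36731721 to 50366174 in control libraries. The B cell list was measured throughout, with Ms4a1 (CD20) at 35231 to 53860. The germinal center list was present too, with Fas at 5026 to 8306, although in that list Gcsam fell by 1.49 and S1pr2 by 0.71 on the log2 scale (adjusted p = 0.00027 and 0.0049, limma), and of the B cell list Cd79a fell by 0.74 (adjusted p = 0.00033). In the plasma cell list 2 of 7 genes tested passed the adjusted p, against 13.8% of all genes tested. Both were lower: Prdm1 (-0.48, limma adjusted p = 0.043) and Xbp1 (-0.45, adjusted p = 0.030), the most abundant gene of that list. Of markers of other cells, Cd3e was at 0 in every library, while Lck, which the T cell list also holds, was 304 to 462 in Prmt5-null and 660 to 780 in control libraries. Cd28 of the T cell list was 67.1 to 252. The myeloid and dendritic list was led by Flt3 (4067 to 6243), with Zbtb46 at 1494 to 2126, Lyz2 at 9.86 to 83.3 and Itgam at 6.46 to 44.8. Cd14, Fcgr1 and Clec9a of that list did not exceed 4.74 in any library. Its Adgre1 rose from 71.1 to 123 in control to 134 to 200 in Prmt5-null libraries (limma adjusted p = 0.042). Gzma led the NK list at 0 to 83.3.

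Fibroblast genes moved with the genotype. All 12 fibroblast markers that could be tested had a higher mean in Prmt5-null libraries. Of these, 4 were called (Col3a1, Sparc, Thbs1 and Col1a2), against 6.48% of all genes tested. The summed normalized count of the list, led by Thbs1, was 10215 to 18934 in Prmt5-null and 6888 to 12125 in control libraries. Postn and Ctgf were at or near 0 everywhere. The extremes were library PRMT5-10617 and library CTRL-10370. Without both, a choice made after seeing the data, the sums were 10215 to 14359 and 8092 to 12125, and the same members passed: Cd38 at a log2 fold change of 1.23 (adjusted p = 0.0032) and Cd80 at 0.54 (adjusted p = 0.020). The sums still ran higher in the Prmt5-null libraries then, so leaving out both libraries cannot separate fibroblast signal from genotype. The part of the fibroblast signal in the values of Cd38, Cd80 and the other members was not tested. Nor was it tested for Cd44, which fibroblasts also express. Transcripts of the feeder ligands were low, with Cd40lg at 7.11 to 18.7 and Tnfsf13b at 30.5 to 96.3.

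Cd40, the receptor for the CD40L of the feeder cells, had normalized counts of 4283, 3766, 4300 and 3223 in the Prmt5-null libraries PRMT5-10617, PRMT5-10618, PRMT5-10770 and PRMT5-10771. It had 4045, 5511, 4988 and 5216 in the control libraries, listed as CTRL-10650, then CTRL-10370, then CTRL-10596 and last CTRL-10597, and all genes below follow this order. The lowest control library lay below 2 of the 4 Prmt5-null libraries, so the groups overlapped. Cd40 thus differed by a log2 fold change of -0.34 ± 0.12 (SE; limma adjusted p = 0.070; 95% interval -0.60 to -0.092) and the exact two-sided permutation p was 0.086. Whether the adjusted p passed 0.05 turned on single libraries: it was 0.029 without library CTRL-10650 and 0.043 without library PRMT5-10770, and it was 0.040 by DESeq2.

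The deposited splicing tables used here held 3 events of Cd40. Events of alternative donor sites were not examined. The study handled each type of event separately and describes keeping 1 event per gene. It chose them by significance and by an inclusion difference above 10%, both in these libraries. The values below thus describe events that were picked for differing, and no test is attached to them. An inclusion level is the share of the form that holds the exon or intron, among reads of both forms of the event and corrected for length. It is not a share of all transcripts of the gene. The tables give 4 levels per genotype without naming the libraries, as the authors' values. Reads behind the events settled which list belongs to which genotype: in 15 of 15 genes past a 2-fold change with at least 50 reads in each list, the list taken as Prmt5-null had more or fewer reads in the direction of the gene's own change. Of the members, 3 of 10 (Cd40, Fcer2a and Cd44) had an event in the tables of skipped exons, mutually exclusive exons, retained introns and alternative acceptors, 7 events in all, against 10.7% of the 13300 genes with a mean above 50. All of the 10 members are abundant, and abundant genes give more junction reads, so that share is no measure of how often the members are affected.

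All of the 3 Cd40 events involve exon 7, which codes for the membrane-spanning segment, the short intron behind it and exon 8. The stretch is shown because each Cd40 event uses one of its splice sites. It runs from exon 7 (87 bases) through intron 7 (101 bases, in capitals) to the end of exon 8 (32 bases), in build GRCm38 at chr2:165069629-165069848 on the plus strand, read from the GENCODE M21 transcript Cd40-207, and the intron opens with GT and closes with AG.
Cd40 exon 7, intron 7 and exon 8: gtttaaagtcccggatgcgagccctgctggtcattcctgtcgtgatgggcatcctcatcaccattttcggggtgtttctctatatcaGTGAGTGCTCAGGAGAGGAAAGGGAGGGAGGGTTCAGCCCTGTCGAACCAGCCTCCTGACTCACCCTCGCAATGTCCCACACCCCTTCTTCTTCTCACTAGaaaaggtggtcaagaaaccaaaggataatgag

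Intron 7 of Cd40 was retained more in Prmt5-null iGBs. Its inclusion level was 0.097, 0.085, 0.099 and 0.147 in the control list and 0.259, 0.234, 0.168 and 0.274 in the Prmt5-null list, so the lists did not overlap. Between 44 and 75 reads per library supported the intron in control iGBs and between 81 and 145 in Prmt5-null iGBs, beside 226 to 367 and 142 to 229 reads of the spliced form. In the annotated transcript Cd40-207, which keeps this intron and is classed as a target of nonsense-mediated decay, the reading frame meets a stop at base 57 of the intron, after 234 codons, against 289 codons in Cd40-201.

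Exon 7 itself was used less often relative to exon 8. The acceptor event weighs the start of exon 7 against the start of exon 8 as the site joined to exon 6. Its level was 0.979, 0.937, 0.851 and 0.950 in control and 0.849, 0.850, 0.781 and 0.762 in Prmt5-null iGBs. That level also counts reads within exon 7 and intron 7, so it is not a share of junctions. The lists came within 0.001 of each other there. From junction reads alone the level was 0.871 to 0.983 in control and 0.783 to 0.868 in Prmt5-null iGBs, again narrowly apart. The direct junction rested on 2 to 22 reads per control library and 18 to 33 per Prmt5-null library. Among transcripts that held exon 7 or exon 8 but not both between exons 5 and 9, exon 7 was held by 0.234 to 0.310 in control and 0.125 to 0.221 in Prmt5-null iGBs. Both forms of that event also lack exon 6 (62 bases, not a multiple of 3). The 3 events share reads and are not independent. Loss of exon 7 alone, whose length is a multiple of 3, leaves the frame and the stop of Cd40-201 in place in the annotated transcript Cd40-202, with 260 codons.

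**Figure D2:**
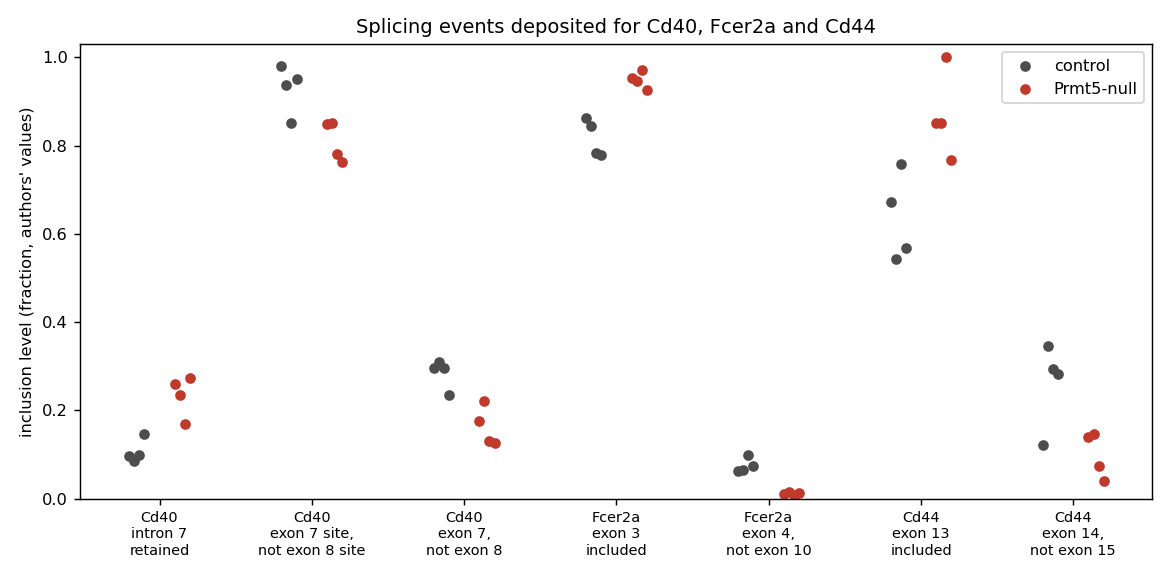
Inclusion level (vertical axis, a fraction from 0 to 1, the authors' values) of the 7 splicing events of Cd40, Fcer2a and Cd44 among the types examined. Each point is 1 library of the control or Prmt5-null list. Retention of Cd40 intron 7 lies at 0.085 to 0.147 in control and 0.168 to 0.274 in Prmt5-null iGBs. Inclusion of the last 39 bases of Fcer2a exon 3 lies at 0.778 to 0.863 and 0.926 to 0.970. Of the 7 events, only the Cd44 choice of exon 14 over exon 15 overlaps between the lists on these levels. From junction reads alone that event does not overlap (0.177 to 0.411 in control, 0.052 to 0.154 in Prmt5-null iGBs). The other Fcer2a event then does (0.47 to 0.759 in control, 0.118 to 0.651 in Prmt5-null iGBs). The authors picked the events for differing, and the share of all deposited events without overlap was not counted.

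Tnfrsf13c, the BAFF receptor, had normalized counts of 6329, 5199, 4847 and 5497 in Prmt5-null and 6347, 6014, 6971 and 6200 in control libraries. library PRMT5-10617 lay within the control range and the other 3 lay below it. The log2 fold change was -0.23 ± 0.090 (limma adjusted p = 0.12; exact permutation p = 0.086), and it was -0.30 with an adjusted p of 0.047 without library PRMT5-10617.

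Of the other receptors for BAFF and APRIL, Tnfrsf13b (TACI) fell, from 5713 to 6794 in control to 4576 to 4846 in Prmt5-null libraries, a log2 fold change of -0.40 ± 0.073 (limma adjusted p = 0.0042). The other, Tnfrsf17 (BCMA), was near the filter at 1.78 to 14.3. Thus 1 of the 2 was lower and none higher past the test, against 13.8% of all genes tested. Its change was under 1.5-fold, so Tnfrsf13b was not called.

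Of the 11 genes of the CD40 and BAFF receptor relays, 1 was higher past the adjusted p (13.8% of all genes passed), none was lower, and none was called. That gene, named after its value was seen, was Traf1, an adaptor induced by NF-κB, at 8735 to 12396 in Prmt5-null and 6792 to 8040 in control libraries (log2 fold change 0.48 ± 0.12; limma adjusted p = 0.023). Its adjusted p rose to 0.065, 0.056 and 0.073 without library PRMT5-10617, CTRL-10370 or CTRL-10596. Nfkb2, the most abundant gene of the list and the precursor of the p52 subunit, was 16508 to 19215 in Prmt5-null and 14776 to 18193 in control libraries, a log2 fold change of 0.14 ± 0.084 (adjusted p = 0.30).

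Cd80, which codes for a ligand of CD28 and CTLA-4, had normalized counts of 2246, 2747, 2291 and 2824 in Prmt5-null and 1945, 1654, 1776 and 1660 in control libraries. Every Prmt5-null library was above every control library. Its log2 fold change was 0.52 ± 0.097 (95% interval 0.31 to 0.73; limma adjusted p = 0.0048), and the exact permutation p was 0.029, the smallest that 4 against 4 libraries can give. The change stayed past the adjusted p under all 19 alternatives, at 0.46 to 0.57, and under 1.5-fold in each.

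Cd86 codes for the other ligand of the pair. Its normalized counts were 1478, 1860, 1537 and 1855 in Prmt5-null and 1883, 1927, 1812 and 1555 in control libraries, and these ranges overlapped. The log2 fold change was -0.095 ± 0.10 (limma adjusted p = 0.58), with a 95% interval of -0.32 to 0.13 that lies inside 1.5-fold in both directions.

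The ratio of Cd80 to Cd86 within a library needs no scaling between libraries, and it was computed after the values had been seen. It was 1.52, 1.48, 1.49 and 1.52 in Prmt5-null and 1.03, 0.858, 0.980 and 1.07 in control libraries, or 1.502 ± 0.022 and 0.985 ± 0.092 (SD, n = 4 each). The 4 Prmt5-null libraries thus spread less than the controls and lay above all of them, a log2 difference of 0.61 (exact two-sided permutation p = 0.029). These are ratios of counts, not of molecules. The annotated exons of Cd80 and Cd86 span 3703 and 3661 bases, and their longest transcripts 3173 and 2539 bases.

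Cd83, a surface protein that stabilizes CD86 and MHC class II and marks light zone B cells, was among the steadiest members. Its normalized counts were 25151, 26915, 28057 and 25353 in Prmt5-null and 24067, 25296, 27010 and 25016 in control libraries, and the ranges overlapped. Its log2 fold change was 0.057 ± 0.075 (limma adjusted p = 0.66; 95% interval -0.11 to 0.22).

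**Figure D3:**
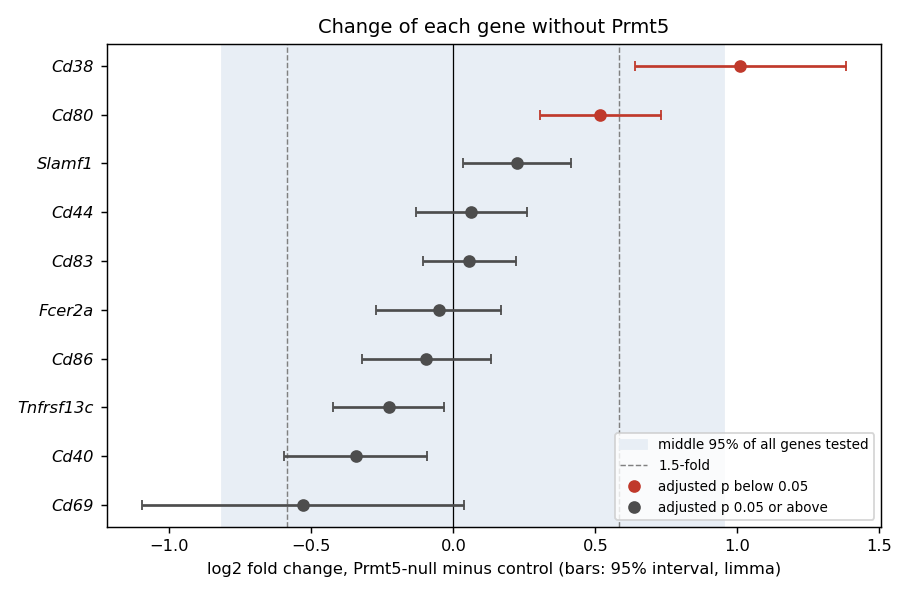
Log2 fold change of each gene, Prmt5-null minus control (horizontal axis), with the 95% interval from limma. Red marks an adjusted p below 0.05, which Cd38 (1.01) and Cd80 (0.52) reach, dashed lines mark 1.5-fold and the shaded band holds the middle 95% of all 16250 genes (-0.81 to 0.95). The interval of Cd69 is the widest, from -1.10 to 0.039.

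Among 11 other costimulatory and checkpoint genes, 10 could be tested, of which 2 were higher and 1 lower past the adjusted p. Over all genes tested, 13.8% passed it. Cd70, the ligand of CD27, was 180 to 305 in Prmt5-null and 107 to 164 in control libraries (log2 fold change 0.86 ± 0.19; limma adjusted p = 0.011), without overlap. Without libraries PRMT5-10617 and CTRL-10370 the log2 fold change was 0.89 (adjusted p = 0.056). Tnfsf4 (OX40L) was 688 to 1038 against 399 to 764, with overlap (0.71 ± 0.18; adjusted p = 0.024), and its adjusted p was 0.077, 0.071 and 0.061 without library PRMT5-10771, CTRL-10596 or CTRL-10597. Tnfrsf14 (HVEM), named after its value was seen, was 404 to 496 against 528.5 to 655 (-0.39 ± 0.11; adjusted p = 0.037), and its adjusted p was 0.055 to 0.11 when any library other than PRMT5-10770 or CTRL-10597 was left out.

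Cd69, an early activation protein that holds S1PR1 off the surface, varied more between libraries than any other member, with a coefficient of variation of 38.7% in Prmt5-null and 29.1% in control libraries. Its normalized counts were 2565, 6849, 4305 and 4480 in Prmt5-null and 4408, 8876, 5873 and 6394 in control libraries. The ranges overlapped widely, with library PRMT5-10617 lowest and library CTRL-10370 highest of all 8. The log2 fold change was -0.53 ± 0.26 (limma adjusted p = 0.20; exact permutation p = 0.26). Without library PRMT5-10618 it was -0.75 (adjusted p = 0.043), without library PRMT5-10617 it was -0.28 (adjusted p = 0.45), and without both PRMT5-10617 and CTRL-10370 it was -0.11 (adjusted p = 0.77), so the value rested on single libraries.

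Cd44, the hyaluronan receptor, had normalized counts of 28751, 27314, 24121 and 25522 in Prmt5-null and 27383, 23275, 23399 and 27185 in control libraries. Library PRMT5-10617 was the highest of the 8, and the groups overlapped. By limma the log2 fold change was 0.063 ± 0.089 (adjusted p = 0.68; 95% interval -0.13 to 0.26).

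The Cd44 transcript Cd44-201 has 19 exons, and both Cd44 events lie in the variable exons that the short form lacks. Exon 13 is shown because its inclusion is 1 of those events. It spans chr2:102834234-102834335 (GRCm38, minus strand, 102 bases), was read from the GENCODE M21 transcript Cd44-201 and is given in lower case throughout.
Cd44 exon 13: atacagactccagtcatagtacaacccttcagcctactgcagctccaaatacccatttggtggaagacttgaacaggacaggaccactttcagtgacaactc

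Exon 13 of Cd44, between exons 12 and 16, was included at 0.543 to 0.759 in control and 0.767 to 1.00 in Prmt5-null iGBs. These levels rested on 17 to 27 reads per control library and 9 to 23 per Prmt5-null library, and the event is lost if 20 reads are asked of each library. Between exons 13 and 16, exon 14 (90 bases) rather than exon 15 (207 bases) was held by 0.122 to 0.345 in control and 0.040 to 0.147 in Prmt5-null iGBs. Those lists overlapped, at 80 to 118 reads per control library and 123 to 190 per Prmt5-null library. Beside normalized counts of 23275 or more for the gene, few reads covered these junctions. The levels do not give the share of all Cd44 transcripts that hold these exons.

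Slamf1, a receptor that binds itself on neighbouring lymphocytes, had normalized counts of 1298, 1565, 1354 and 1533 in Prmt5-null and 1273, 1154, 1258 and 1222 in control libraries. The groups did not overlap, but the lowest Prmt5-null library was 1298 and the highest control library 1273. The log2 fold change was 0.23 ± 0.087 (limma adjusted p = 0.11; exact permutation p = 0.029), and the adjusted p stayed above 0.05 in all 19 alternatives. Absence of overlap was common in these data: 3 of 10 members (Cd38, Cd80 and Slamf1) showed it, against 19.8% of all genes tested.

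In the other SLAM receptors and their adaptors, 7 of 9 genes could be tested, with 1 higher and 2 lower past the adjusted p. Over all genes tested, 13.8% passed it. Both lower genes were of low abundance. Slamf9 was 16.7 to 29.9 in Prmt5-null and 33.2 to 64.6 in control libraries (log2 fold change -1.09 ± 0.28; limma adjusted p = 0.024), and its adjusted p was 0.056 to 0.072 without library PRMT5-10617, CTRL-10650, CTRL-10370 or CTRL-10596. Sh2d1b1, which codes for the adaptor EAT-2, was 18.7 to 29.6 against 36.7 to 77.6 (-1.14 ± 0.28; adjusted p = 0.018), with 0.058 and 0.057 without library PRMT5-10771 or CTRL-10370. Cd48, an abundant SLAM family protein named after its value was seen, was 13701 to 14862 against 10745 to 12309 (0.30 ± 0.071; adjusted p = 0.015), with 0.057 and 0.051 without library PRMT5-10771 or CTRL-10597.

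Cd38, an ectoenzyme that consumes NAD, was the lowest member in control iGBs and the only one called. Its normalized counts were 388, 541, 493 and 576 in Prmt5-null and 275, 307, 225 and 190 in control libraries. The groups were 499.7 ± 81.9 and 249 ± 52.0 (SD, n = 4 each), and the lowest Prmt5-null library exceeded the highest control library. On the log2 scale Cd38 rose by 1.01 ± 0.17 (95% interval 0.64 to 1.38; limma adjusted p = 0.0026; exact permutation p = 0.029). It stayed called in all 19 alternatives, at 0.89 to 1.23.

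Fcer2a codes for CD23, the low-affinity IgE receptor, which IL-4 induces. Its normalized counts were 36947, 34343, 28869 and 28295 in Prmt5-null and 30778, 33215, 32264 and 36170 in control libraries. The Prmt5-null libraries lay on both sides of the controls, and the log2 fold change was -0.051 ± 0.10 (limma adjusted p = 0.78; 95% interval -0.27 to 0.17). Without library PRMT5-10771 it was 0.0071 (adjusted p = 0.98), so no direction can be given.

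Exon 3 of Fcer2a carries its membrane-spanning segment and is shown because its inclusion rested on many more reads than that of the Cd44 exon. The exon spans chr8:3690022-3690141 (GRCm38, minus strand, 120 bases), read from the GENCODE M21 transcript Fcer2a-201. The deposited event names its last 39 bases, in capitals, which an annotated shorter form of the exon also holds.
Fcer2a exon 3: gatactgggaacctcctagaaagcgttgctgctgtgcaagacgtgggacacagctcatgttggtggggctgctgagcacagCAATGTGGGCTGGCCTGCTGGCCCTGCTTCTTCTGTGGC

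The 39 bases of Fcer2a exon 3 named by the event were included at 0.863, 0.844, 0.782 and 0.778 in control and at 0.953, 0.947, 0.970 and 0.926 in Prmt5-null iGBs. Their skipping was thus less frequent without Prmt5, in lists that did not overlap. The skipped form had 41 to 81 reads per control library and 7 to 19 per Prmt5-null library, beside 340 to 462 and 297 to 430 reads of the included form. Beside normalized counts of 28295 or more for the gene, few reads covered the event. The levels do not give the share of all Fcer2a transcripts that lack exon 3. The direction of the event was opposite to that of Cd40 exon 7. The other Fcer2a event, exon 4 rather than exon 10, depended on how it was read: it was 0.063 to 0.099 in control and 0.008 to 0.016 in Prmt5-null iGBs when reads within the exons were counted, and 0.470 to 0.759 and 0.118 to 0.651, with overlap, from junction reads alone.

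Per length of exon, the members spanned a wide range in control iGBs. Fcer2a (10707 ± 736 normalized counts per kb of annotated exon) and Cd83 (9855 ± 477) were highest and their ranges overlapped. Then came Cd44 (3735 ± 337), Tnfrsf13c (3117 ± 203), Cd40 (1450 ± 186) and Cd69 (981 ± 286), of which the last 2 overlapped. Cd86 (490.0 ± 45.4) and Cd80 (475 ± 36.8) overlapped as well, and Slamf1 (199 ± 8.64) and Cd38 (64.0 ± 13.4) followed without overlap. In Prmt5-null iGBs the order was the same except that Cd80 (682 ± 81.2) stood above Cd86 (460 ± 55.6), with ranges of 607 to 763 and 404 to 508, and overlapped Cd69 (699 ± 270) instead. Divided by the longest transcript, Cd80 (708 to 890) and Cd86 (582 to 733) overlapped in Prmt5-null iGBs.

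**Figure D4:**
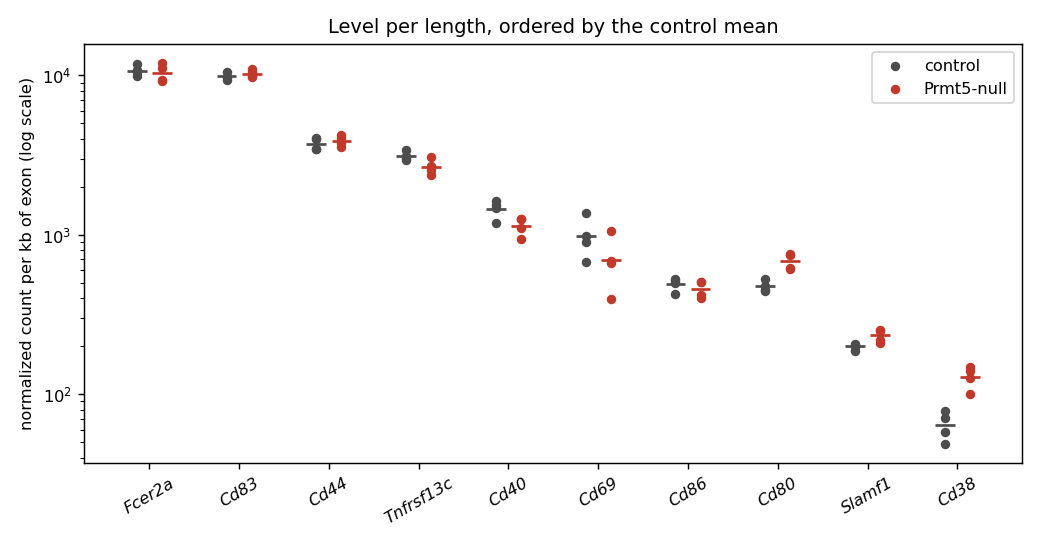
Level of each gene per length, in normalized counts per kb of annotated exon (vertical axis, log scale), with genes ordered by the control mean. Points are libraries and lines are means, and the genes run from Fcer2a at 10707 to Cd38 at 64.0 in control iGBs, with Cd80 above Cd86 only in Prmt5-null iGBs.

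A wider list of 14 activation and maturation surface genes, all tested, had 5 higher and 1 lower past the adjusted p. Over all genes tested, 13.8% passed it. Its called genes were Cr2 and Cd200. Cr2, the complement receptor CD21 of follicular and marginal zone B cells, was 570 to 861 in Prmt5-null and 295 to 445 in control libraries (log2 fold change 1.03 ± 0.16; limma adjusted p = 0.0014), without overlap. Cd200, an inhibitory ligand, was 406 to 509 against 200 to 291 (0.78 ± 0.14; adjusted p = 0.0039).

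The other genes of that list past the adjusted p, named after their values were seen, changed by less than 1.5-fold. Fas rose by 0.47 (adjusted p = 0.0050), Cxcr4 by 0.47 (adjusted p = 0.0095) and Cd93 by 0.54 (adjusted p = 0.020) on the log2 scale by limma, while Slc3a2 fell by 0.44 (adjusted p = 0.0033). Cd93 had an adjusted p of 0.058 and 0.067 without library PRMT5-10617 or PRMT5-10771. The median of the list was 0.38. The fibroblast markers given above were also higher in Prmt5-null libraries. Without libraries PRMT5-10617 and CTRL-10370, the extremes of the fibroblast sum, the log2 fold change by limma was 1.26 for Cr2, 0.85 for Cd200, 0.55 for Fas and 0.60 for Cxcr4, all past the adjusted p, and 0.37 for Cd93 (adjusted p = 0.079). The fibroblast sums of the remaining libraries still ran higher in Prmt5-null iGBs. The part of the fibroblast signal in these genes was not tested.

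**Figure D5:**
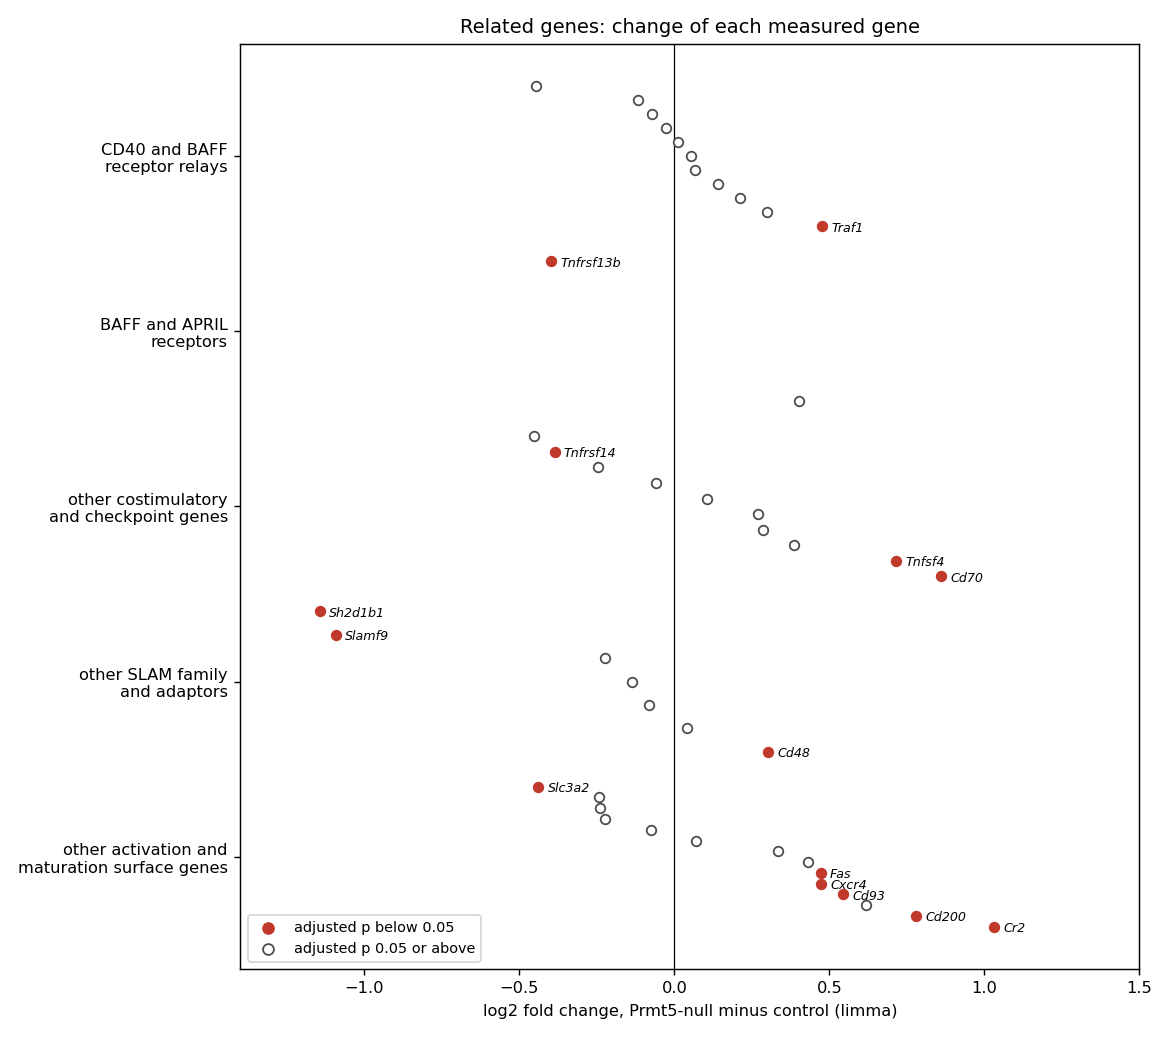
Log2 fold change of each tested gene of 5 related lists, Prmt5-null minus control (horizontal axis), with filled red points for an adjusted p below 0.05 by limma. Labelled genes run from Sh2d1b1 at -1.14 to Cr2 at 1.03, and 1 of the 11 relay genes (Traf1) and 6 of the 14 activation and maturation genes are filled.

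The libraries also fell on either side of the second principal component, which held 25.8% of the variance and put 2 libraries of each genotype on each side. The study made the libraries in 2 experiments, but the labels do not tie each library to one, so the experiment could not be a term. The sides were drawn from these same expression values and are not known to match the experiments, so the values within them are description only. Library PRMT5-10771 (-3.02) and library CTRL-10596 (5.58) lay close to the boundary. Within the sides, the log2 difference of Cd38 was 0.88 and 1.15, that of Cd80 0.50 and 0.53, and that of Cd40 -0.34 and -0.34. The differences of Cd44 (-0.025 and 0.15) and Fcer2a (-0.16 and 0.060) changed sign between the sides.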

How the data were processed

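The authors trimmed reads with Trimmomatic 0.32, aligned them with STAR 2.3.0e to mm10 (GRCm38), counted them on genes with featureCounts 1.4.4 and deposited a normalized signal, each count divided by its library's DESeq2 1.14.1 size factor. The authors ran rMATS for splicing and deposited inclusion levels as fractions, read counts, and columns of their own p-values, FDR values and differences, which were not used. The strand setting of counting is not given in the sources used here, so overlapping and antisense genes are uncertain.

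Every deposited value was a whole multiple of 1 read (within 0.1 of a read), which gave back whole reads for each library. The 16250 genes whose normalized counts averaged 10 or more were compared by limma 3.58.1 (lmFit, then eBayes, trend on) under R 4.3.3. It was run on log2(value + 1), and p-values were adjusted by Benjamini-Hochberg. edgeR 4.0.16 and DESeq2 1.42.0 on the recovered reads, other pseudocounts, filters and scalings, a term for the side of the second principal component and leaving out each library were alternatives. The fits by limma, edgeR and DESeq2 were tested on simulated counts, and the permutation test was checked on random values against SciPy. Fold changes are on the log2(normalized count + 1) scale, and understate the change of low genes. Lengths and exon numbers came from GENCODE M21 (GRCm38), and inclusion levels recomputed from the deposited reads lay within 0.0005 of the authors' values. An exact permutation of 4 against 4 libraries cannot go below a p of 0.029. Of the related lists, the called genes were named, at most 4 by size of change, or the most abundant gene where none was called. The members and lists were chosen with earlier results of these data known. Symbols were matched to 1 row each, by Ensembl ID for Cr2, which names 2 rows, Ighd was not analysed here, and some genes of the lists are not reported here. Protein sequences were not used here. The libraries were labelled as independent biological samples.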

Additional observations from a re-analysis of the deposited data

Results flagged for a closer look

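In groups of 4 libraries, 3 of 74 groups tested held a library set apart from the other 3, a gap of more than 0.83 of the group's range. Chance flags about 1 in 20 groups. None of the 10 members and not the ratio of Cd80 to Cd86 was among them. Cxcr4 was 3821 in library CTRL-10370, against 2951 to 3056 in the other control libraries. Gcsam was 189 in library PRMT5-10771, against 140 to 146 in the others. Thbs1, a fibroblast marker, was 3646 in library CTRL-10650, against 2031 to 2299.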

How the results depend on the processing

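Cd38 stayed called and Cd80 stayed past the adjusted p under every alternative run, and the count of called members was 1 in each, except that leaving out single libraries gave 1 to 2, the second being Cd69 without library PRMT5-10618. Counts of members past the adjusted p were 2 or 3. Of all genes, 1053 were called, 1091 by edgeR and 1277 by DESeq2 on the recovered reads, 792 to 1170 without single libraries, and 396 at a fold threshold of 2. The sign reversed for Cd86 (0.00029) and Cd44 (-0.017) without libraries PRMT5-10617 and CTRL-10370, and for Fcer2a without library PRMT5-10771 (0.0071, in a range of -0.12 to 0.0071 without single libraries), all at adjusted p-values of 0.94 or more. The cause was not tested. Of the 14 related genes past the adjusted p, 7 remained so without libraries PRMT5-10617 and CTRL-10370 (lost were Traf1, Cd70, Tnfrsf14, Slamf9, Cd48, Sh2d1b1 and Cd93), and 11 with no trend in the variance (without Traf1, Tnfsf4 and Cd93). Read against the longest transcript instead of all exons, Fcer2a and Cd83 no longer overlapped in control iGBs (13728 to 16133 against 9716 to 10904 per kb), and 2 pairs of neighbours rather than 3 did, while in Prmt5-null iGBs Cd80 and Cd86 came to overlap (708 to 890 against 582 to 733 per kb). Asking 20 reads of each library kept 6 of 7 splicing events. Depth did not limit the members, whose lowest normalized count was 190, but junction reads limited the Cd44 events. No paired analysis was possible because the genotypes share no replicate label.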
